A study of Mus musculus with 3 samples.

Results

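The cells described here were monocytes carrying Ly6c2 messenger RNA, compared between the tumor of mice depleted of regulatory T cells (Treg) and the blood of control tumor-bearing mice, with the tumor of control mice shown beside them. Members were chosen cell by cell from the counts of unique molecular identifiers (UMIs, each standing for 1 captured RNA molecule). A barcode was taken as a cell when it held 1000 UMIs and 400 genes or more, with mitochondrial UMIs no higher than 10%. A cell was a member if it held at least 3 Ly6c2 UMIs, under 0.1% of its UMIs from the complement genes C1qa, C1qb and C1qc together, no UMI of Flt3, Ngp or Camp and at most 1 of Csf3r. These conditions set aside macrophages rich in C1q, dendritic cells with Flt3 and neutrophils or their precursors. They were met by 4045 of 14427 cells: 1910 of 5550 in control blood (34.4%), 915 of 4443 in the control tumor (20.6%) and 1220 of 4434 in the Treg-depleted tumor (27.5%). The gate used the same readout that is described below, so the levels of its own genes are a description of the choice.

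All mice were C57BL/6J with a subcutaneous B16F10 tumor, a mouse melanoma line. The control blood and control tumor came from control animals, titled wild type, and the Treg-depleted tumor came from an animal of the FoxP3 DTR line, in which cells that transcribe Foxp3 carry the diphtheria toxin receptor. Depletion of Treg and that allele came together, so depletion and genotype cannot be told apart. Each group is 1 library, no label gives an animal number, pooling or day, and blood of depleted mice was not analysed here. Cells were sorted as CD45+ and CD11b+ and/or CD11c+, without CD90, NK1.1, Ly6G, B220 or SigF. Tumors were digested with enzymes for 30 min at 37 °C and blood had its red cells lysed, so tissue of origin and digestion cannot be told apart in any comparison with blood. The targeted population could not be checked in these libraries: Foxp3 had 0, 1 and 0 UMIs in all cells of blood, control tumor and Treg-depleted tumor, and the sort removed CD90+ cells, which include T cells, from all of them. With 1 library a group there is no test and no p-value. Levels are CPM, UMI counts of the summed members of a library scaled to the usual fixed total, differences are log2 ratios of CPM, and their 95% intervals cover counting error only.

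Classical monocytes are made in the bone marrow, circulate in blood with high Ly6C and the chemokine receptor CCR2, and enter inflamed tissue and tumors, where they lose blood features and can become macrophages or cells resembling dendritic cells. Type 1 cytokines such as interferon gamma and type 2 cytokines such as interleukin 4 are known to direct monocyte-derived cells to different gene programs, the first marked by guanylate-binding proteins, Nos2 and Cxcl9, the second by Arg1, Retnla, Mrc1, Ccl17 and Ccl24. Regulatory T cells restrain both kinds of helper response.

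Of the genes that mark classical monocytes, Ccr2 was far lower in the tumors than in blood. Ly6c2 was required by the gate, so its presence is no check of the label, and it stood at 1981 CPM in control blood, 1493 in the tumor of control mice and 2286 in that of Treg-depleted mice. Ccr2, the receptor that monocytes need to leave the marrow and reach tissue, stood at 1496, 259.9 and 171 CPM, a log2 ratio of Treg-depleted tumor over blood of -3.13 (-3.22 to -3.04). After each cell was thinned to 1000 UMIs, 70.1% of members in blood, 22.5% in control tumor and 15.2% after Treg depletion had a Ccr2 UMI, against 93.1%, 67.2% and 44.4% of whole cells. Among 77 B cells of blood, which lack the gene, the thinned share was 15.6%, and among 103 neutrophils of the Treg-depleted tumor 0.971%. Cells at the edge of the gate were common: 319, 142 and 175 members had exactly 3 Ly6c2 UMIs, while 413, 183 and 266 cells that met all other conditions had 2. The C1q condition removed 18, 778 and 496 cells, so the tumor members are the part of tumor Ly6c2 cells with little C1q. Members with C1q at 0.05 to 0.1% of UMIs numbered 10, 88 and 125, and removed cells at 0.1 to 0.2% numbered 11, 75 and 202.

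Other cell types inside the gate differed between the libraries. Cells with NK-cell, B-cell, T-cell or plasmacytoid dendritic cell markers made up 67 of 1910 members in blood, 37 of 915 in the control tumor and 4 of 1220 in the Treg-depleted tumor; those in blood were mostly NK or plasmacytoid cells (37 and 25) and those in the control tumor plasmacytoid cells (35). Summed NK-cell genes stood at 229, 11.2 and 0.948 CPM, B-cell genes at 56.2, 2.75 and 0.474, plasmacytoid genes at 139, 336 and 62.9, and neutrophil genes at 231, 72.7 and 103. Nonclassical monocytes, the patrolling type with Ace and Treml4, were 161, 43 and 13 members. Cells with 1% or more of their UMIs from H2-Aa, H2-Ab1, H2-Eb1 and Cd74, as dendritic cells and activated monocytes have, were 16.3% of members in blood, 63.5% in control tumor and 52.9% in Treg-depleted tumor. The members held 7777148, 5814514 and 6329919 UMIs, with medians of 3932.5, 5365 and 4857 per cell. Members shared 2, 1 and 3 barcodes between the pairs of libraries, near the 2.37, 3.16 and 1.51 that drawing barcodes at random gives.

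Most genes measured were within 2-fold of blood or below it in the Treg-depleted tumor. Of 9712 genes with at least 20 UMIs in either sum, 1379 (14.2%) were at least 2-fold higher than in blood and 2851 (29.4%) lower by that factor, with a median log2 ratio of -0.41. In the control tumor 1161 of 9599 genes (12.1%) were higher and 2331 (24.3%) lower than in blood, with a median of -0.38. Scaling by the median gene ratio in place of the total gave 1947 higher and 1847 lower for the Treg-depleted tumor and 1626 higher and 1471 lower for the control tumor, under which lower genes did not outnumber higher ones. Directly between the tumors, 643 of 8751 genes (7.35%) were at least 2-fold higher in the Treg-depleted tumor and 549 (6.27%) lower by that factor, with a median of -0.07. All 3 comparisons share libraries, so values are given side by side.

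Genes of blood monocytes were among the clearest losses. Of 24 measured classical monocyte genes, 3 were at least 2-fold higher in the Treg-depleted tumor than in blood and 11 lower, beside 14.2% and 29.4% of all genes, and their median log2 ratio was -0.80; in the control tumor it was -0.74, also with 3 higher and 11 lower. Lyz2, the lysozyme of myeloid cells, stood at 47079 CPM in blood, 19569 in the tumor of control mice and 6775 in that of Treg-depleted mice, a log2 ratio of -2.80 (-2.81 to -2.78) over blood and -1.53 over the control tumor. The Treg-depleted tumor was lowest for this gene, and the 3 counting intervals were apart. Hp, haptoglobin, stood at 1213, 348 and 178 CPM and the interferon-inducible Ifitm6 at 746, 229.9 and 145 in the same order. Cx3cr1, the fractalkine receptor, was 269.6 CPM in blood and only 10.3 and 11.8 in the tumors, a log2 ratio of -4.51 (-4.86 to -4.18). Klf2, a transcription factor of quiescent circulating leukocytes, was at 947, 89.9 and 64.3 CPM, low in both tumors. Not all blood markers were lower. Chil3, a chitinase-like protein of marrow monocytes that type 2 cytokines also induce, was 2385, 921 and 3283 CPM, lowest in the control tumor. Its log2 ratio between the tumors, 1.83, became 0.97 without the cells high in MHC class II. Ly6a, the antigen Sca-1, and Cd14, the lipopolysaccharide co-receptor, were higher in the tumors, at 34.97, 1096 and 867 CPM and 32.7, 4357 and 1529 CPM; Cd14 was -1.51 on the log2 scale between the Treg-depleted and the control tumor.

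Genes with the lowest ratios to blood were mostly low in both tumors. Hpgd, which inactivates prostaglandins, stood at 225, 12.4 and 1.58 CPM, a log2 ratio of -7.15 (-8.22 to -6.27) over blood. Il16, the precursor of a T-cell attractant, stood at 80.4, 2.58 and 0.948 CPM and the channel gene Calhm2 at 76.8, 1.38 and 0.948. The lowest set also held Skint3, Ldlrad3, Ppfia4, Nxpe4, Lyl1 and Bmyc, at 66.5 to 146 CPM in blood and 1.42 to 4.11 in the Treg-depleted tumor. Gzma and Nkg7, cytotoxic granule genes of NK cells, were 152 and 52.5 CPM in blood and 2 and 0 UMIs in the Treg-depleted tumor; Gzma had a log2 ratio of -8.91 (-11.96 to -7.05) and Nkg7 was at least 111-fold lower. With fewer than 3 UMIs set to 3, the log2 ratio of Gzma was -8.32. It was -3.68 on that scale without the cells bearing NK-cell, B-cell, T-cell or plasmacytoid markers. Gzma and Nkg7 are among those markers, so a smaller difference was set by the choice of cells.

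A smaller set was lower in the Treg-depleted tumor than in both other libraries. Apoe, the apolipoprotein that carries cholesterol out of macrophages, was 2999 CPM in blood, 1890.3 in control tumor and 195 in Treg-depleted tumor, log2 ratios of -3.94 (-4.02 to -3.86) over blood and -3.28 (-3.36 to -3.19) over the control tumor. The thinned shares of members with an Apoe UMI were 60.5%, 54.8% and 12.3%, against 50.6% of 77 B cells of blood (median 2232 UMIs) and 2.91% of 103 neutrophils of the Treg-depleted tumor (median 1715 UMIs). By CPM the control tumor was within 2-fold of blood for this gene, while the Treg-depleted tumor was far below both. Among thinned neutrophils, 51.2% of 127 in blood and 39.3% of 28 in the control tumor had an Apoe UMI. The share of members in blood was thus near that of B cells and neutrophils there. Free RNA held Apoe at 3604, 4435 and 160 CPM, above the members in blood and control tumor. With free RNA subtracted, the log2 ratio was -1.09 for control tumor over blood and -2.56 between the tumors. Tmem176b and its neighbor Tmem176a, ion channels of dendritic cells and monocytes, stood at 398, 149 and 11.5 CPM and 193, 99.1 and 9.79 CPM, ratios between the tumors of -3.69 and -3.34. Ifngr1, the ligand-binding chain of the interferon gamma receptor, stood at 682, 272 and 86.9 CPM, -2.97 over blood and -1.64 over the control tumor. Trf, the iron carrier transferrin, stood at 294, 203 and 62.6 CPM, and Gpr183, an oxysterol receptor that positions dendritic cells, at 50.5, 58.99 and 12.5. Cd209a, a lectin of monocyte-derived dendritic cells, stood at 85.4, 73.4 and 25.1 CPM, a log2 ratio to blood of -1.77. Its free RNA in blood stood at 275 CPM, and subtracting free RNA left blood at the floor of 3 UMIs. The ratio of 5.28 then obtained is a ratio to that floor and gives no direction. Its ratio between the tumors went from -1.55 to -0.14 without the cells high in MHC class II.

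**Figure D1:**
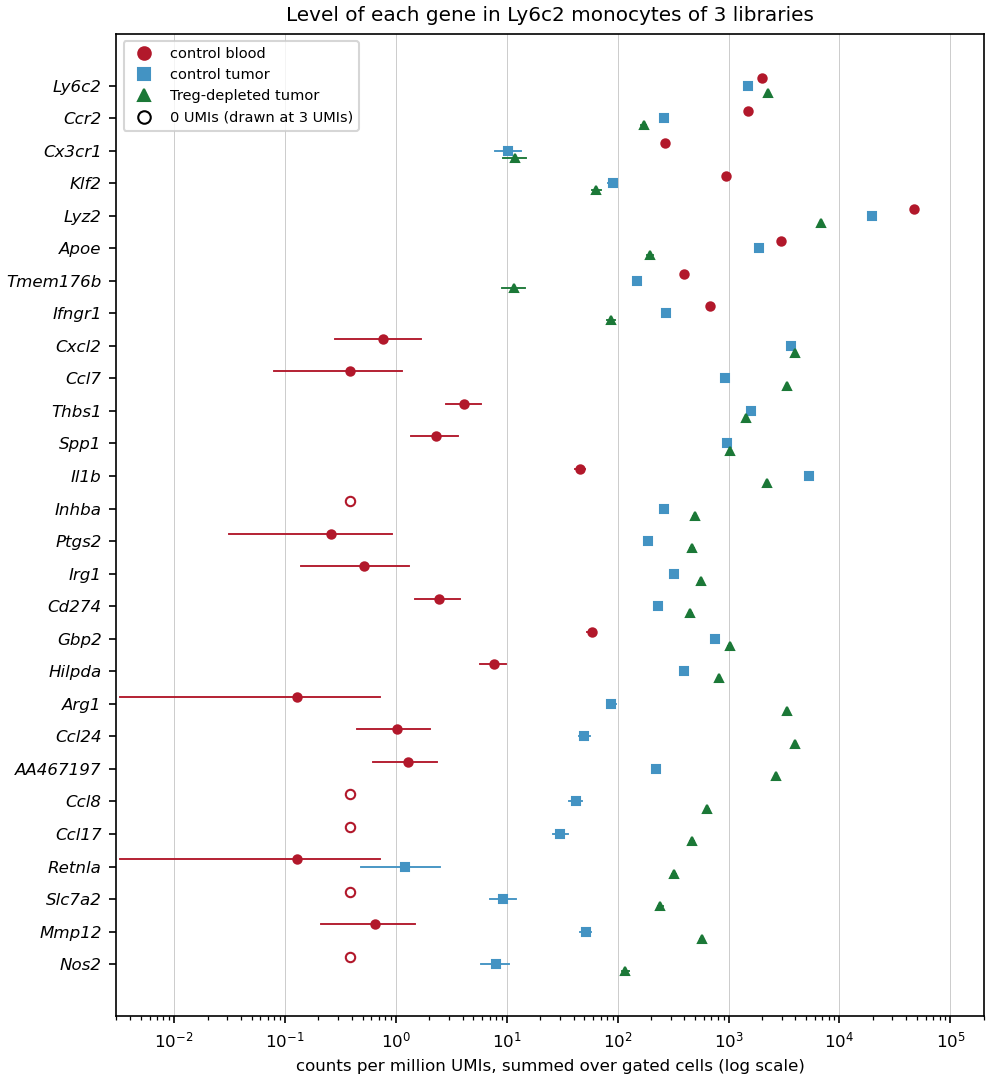
Level of 28 genes in the members of each library, as CPM on a log axis with 95% Poisson intervals; open markers stand for 0 UMIs and are drawn at the level of 3. Blood genes such as Cx3cr1 and Klf2 lie to the right in blood alone, Cxcl2, Thbs1 and Spp1 lie together in both tumors, and Arg1, Ccl24 and Retnla lie farthest right in the Treg-depleted tumor.

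Chemokine ligands were the list farthest above blood. Of 19 measured, 16 were at least 2-fold higher in the Treg-depleted tumor and 0 lower, with a median log2 ratio of 7.75; the control tumor also had 16 higher and 0 lower, with a median of 6.26 beside 12.1% and 24.3% of all genes. Cxcl2, a neutrophil attractant, had 6 UMIs in blood (0.771 CPM), and stood at 3657 CPM in the tumor of control mice and 3964 in that of Treg-depleted mice, a log2 ratio over blood of 12.33 (11.20 to 13.77). The 2 tumors were close to each other for this gene, 0.12 apart on the log2 scale (0.09 to 0.14). Its partners at the same receptor divided: Cxcl3 stood at 0, 194 and 372 CPM and was at least 964-fold higher than in blood, while Cxcl1 stood at 0.386, 336 and 129.5 and was lower in the Treg-depleted than in the control tumor (-1.37). Ccl2, Ccl7, Ccl8 and Ccl12, ligands that attract monocytes and lie together on chromosome 11 (mm10; Ccl7 at chr11:82045712-82047525), were all higher in the Treg-depleted tumor than in the control tumor. Ccl2 stood at 17.6, 1349 and 3803 CPM and Ccl7 at 0.386, 930.3 and 3348, the latter from 3 UMIs in blood with a log2 ratio of 13.08 (11.54 to 15.36). Ccl12 stood at 0.514, 149.8 and 349 CPM, but its ratio between the tumors of 1.22 was 0.25 without the C1q condition. Ccl8 had no UMI in blood, 41.8 CPM in control tumor and 642 after Treg depletion, at least 1665-fold higher than in blood. Cxcl9 and Cxcl10, interferon-induced attractants of T cells, were higher in both tumors than in blood, at 5.400, 382 and 215 and 58.9, 992 and 559.9 CPM, and both were lower in the Treg-depleted than in the control tumor by under 2-fold (-0.83 and -0.83). Between the tumors 6 of 19 ligands were at least 2-fold higher and 1 lower in the Treg-depleted tumor, beside 7.35% and 6.27% of all genes. Free RNA, from barcodes with 10 to 100 UMIs, held the ligands of this list at 5116, 19873 and 40091 CPM. The members held them at 2650, 12332 and 23378. For Cxcl2 free RNA stood at 396, 4767 and 7733 CPM and for Ccl7 at 140, 2669 and 6186. Neutrophils of the Treg-depleted tumor held Cxcl2 at 33396 CPM. The part of free RNA in the members' levels was not tested.

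Ccl24 and Ccl17 set the Treg-depleted tumor apart. Ccl24, eotaxin-2, which attracts eosinophils through CCR3, had 8 UMIs in blood (1.03 CPM), and stood at 50.05 CPM in control tumor and 3983 in Treg-depleted tumor, log2 ratios of 11.92 (10.94 to 13.13) over blood and 6.31 (6.15 to 6.49) over the control tumor. A Ccl24 UMI was in 0.105% of thinned members in blood, 1.97% in the tumor of control mice and 54.7% in that of Treg-depleted mice. In the last library it was also in 20% of 10 type 1 dendritic cells (median 6980 UMIs) and 28.2% of 103 neutrophils (median 1715 UMIs), cells not known for this gene. Free RNA of that library held Ccl24 at 5042 CPM, and its part in these shares was not tested. Ccl17, the CCR4 ligand of dendritic cells, had no UMI in blood, 30.4 CPM in control tumor and 467 after Treg depletion, at least 1211-fold higher than blood and 3.94 on the log2 scale over the control tumor. Its UMIs were in few cells: 98.1% of them were in the 10% of members with the largest share of their UMIs from Ccl17.

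Inflammatory cytokines and targets of the transcription factor NF-kB were high in both tumors. Of 34 measured genes, 29 were at least 2-fold higher than blood in the Treg-depleted tumor and 0 lower (median 3.34), and 29 were higher in the control tumor (median 3.04). Of all genes, 14.2% were higher and 29.4% lower in the Treg-depleted tumor, and 12.1% were higher in the control tumor. Il1b, interleukin 1 beta, was 46.03 CPM in blood, 5343 in control tumor and 2219.6 in Treg-depleted tumor, so the control tumor was highest. Its antagonist Il1rn was 7.97, 796 and 914 CPM, and tumor necrosis factor, Tnf, 6.301, 170.4 and 340.3. Il10, which dampens inflammation, was highest in the control tumor at 30.3 CPM, against 0.129 in blood (1 UMI) and 2.53 in the Treg-depleted tumor, -3.58 between the tumors (-4.42 to -2.84). Ptgs2, the inducible prostaglandin synthase, had 2 UMIs in blood and stood at 189 and 469 CPM in the tumors, a log2 ratio of 10.83 (8.98 to 13.88). Irg1, which makes itaconate, was 0.514, 322 and 559 CPM, and Inhba, an activin subunit, had no UMI in blood and 259 and 494 CPM in the tumors, at least 1280.2-fold higher in the Treg-depleted tumor than in blood. Between the tumors 5 of 36 genes were at least 2-fold higher and 6 lower in the Treg-depleted one, beside 7.35% and 6.27% of all genes. The list's median was -0.15.

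Most genes of alternative activation, the program that interleukins 4 and 13 induce, were at least 2-fold above blood in both tumors. Of 21 measured, 17 were higher than blood by that factor in the Treg-depleted tumor and 1 lower, beside 14.2% and 29.4% of all genes (median 5.19). In the control tumor 16 of 21 were higher and 2 lower, beside 12.1% and 24.3% (median 3.78). Between the tumors 12 of 22 measured were higher in the Treg-depleted one and 2 lower, beside 7.35% and 6.27% (median 1.18). Arg1, the arginase that takes arginine from T cells and from nitric oxide synthesis, lies at chr10:24915221-24927484 in mm10. It had 1 UMI in blood, 510 UMIs in the control tumor (87.7 CPM) and 21273 in the Treg-depleted tumor (3361 CPM). The log2 ratio was 14.67 (12.20 to 19.98) over blood and 5.26 (5.13 to 5.39) over the control tumor, 38.3-fold. After thinning, Arg1 was found in 0% of members in blood (which allows up to 0.193%), 3.17% in the tumor of control mice and 58.8% (55.9 to 61.5%) in that of Treg-depleted mice, and in 75.7% of whole members of the last. Free RNA held it too: barcodes with 10 to 100 UMIs stood at 20.4, 182 and 3579 CPM. In the Treg-depleted tumor Arg1 was also found in 23.3% of neutrophils and 50% of the 10 type 1 dendritic cells. Whether these UMIs were free RNA or the cells' own was not tested. With free RNA subtracted, the log2 ratio between the tumors was 5.74.

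Other genes of the program were higher in level, but not all in the share of cells. Retnla, a resistin-like protein of type 2 responses, had 1 UMI in blood, 1.204 CPM in control tumor and 322 after Treg depletion, a log2 ratio between the tumors of 8.06 (7.02 to 9.38). Its thinned share was 7.54% in the Treg-depleted tumor against 9.71% of neutrophils there, so its share of cells was not above background, and free RNA stood at 1493 CPM. Ccl8 was likewise in 11.1% of members and 14.6% of neutrophils. Mrc1, the mannose receptor, stood at 10.8, 48.7 and 207 CPM and was in 14.3% of thinned members of the Treg-depleted tumor against 1.94% of neutrophils. The lectin Mgl2 stood at 2.06, 46.4 and 161 CPM, the transglutaminase Tgm2 at 3.73, 259 and 691 and the scavenger receptor Cd36 at 9.26, 91.8 and 284, each highest in the Treg-depleted tumor. Members of the list that were not so included Tgfb1 at 419, 442 and 309 CPM, Pparg at 8.87, 19.8 and 8.37 and Irf4 at 13.8, 6.19 and 6.32.

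Arginine handling was not confined to Arg1. Slc7a2, an arginine importer that interleukin 4 and interferon gamma can induce, had no UMI in blood, 9.29 CPM in control tumor and 243 in Treg-depleted tumor, at least 629-fold higher than in blood and 4.71 over the control tumor. Nos2, the inducible nitric oxide synthase that competes with arginase, had no UMI in blood either, and 7.91 and 116 CPM in the tumors, at least 302-fold higher and 3.88 over the control tumor. So the 2 enzymes that share arginine were both highest in the Treg-depleted tumor. Arg2, the mitochondrial arginase, was 2.31, 172 and 157 CPM, Ass1, which remakes arginine, 48.1, 282 and 345, and Odc1, the first enzyme of polyamine synthesis, 8.101, 343 and 229; these 3 were high in both tumors. Of the 13 measured genes of this list 8 were at least 2-fold higher than blood in the Treg-depleted tumor and 0 lower (median 2.49). The shares of all genes were 14.2% and 29.4%. The control tumor also had 8 higher and 0 lower (median 2.02), beside 12.1% and 24.3% of all genes. Between the tumors 3 were higher and 0 lower in the Treg-depleted one, beside 7.35% and 6.27%.

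AA467197 and Erdr1 belong to no list and were named by their ratios alone. AA467197, whose small product is related to a mitochondrial respiratory chain subunit, stood at 1.29, 221 and 2695 CPM, a log2 ratio of 11.03 (10.15 to 12.09) over blood and 3.61 over the control tumor. It was in 62.5% of thinned members of the Treg-depleted tumor and 54.4% of neutrophils there. Erdr1 was at 1.03, 1.03 and 82.5 CPM, low in both control libraries. Basp1, a membrane protein linked to the cytoskeleton, was high in both tumors, at 328 and 516 CPM against 2 UMIs in blood (10.97, 9.12 to 14.02).

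Both arms of the interferon response were measured, and they differed. Of 36 measured interferon gamma response genes, 28 were at least 2-fold higher in the Treg-depleted tumor than in blood and 0 lower (median 2.04), and 26 in the control tumor (median 1.73). Of all genes, 12.1% were higher in the control tumor, and 14.2% were higher and 29.4% lower in the Treg-depleted tumor. Of 42 type I interferon response genes 6 were higher and 4 lower (median -0.09), the higher share being near the 14.2% of all genes, and in the control tumor 4 were higher and 3 lower. Gbp2, a guanylate-binding protein that acts against intracellular microbes, was 58.2 CPM in blood, 755 in the tumor of control mice and 1019.6 in that of Treg-depleted mice. Gbp4 stood at 3.34, 70.9 and 236 CPM, the interferon-inducible GTPase Iigp1 at 1.67, 95.5 and 309 and the protease inhibitor Serpina3g at 5.01, 95.5 and 302, all over 2-fold higher between the tumors as well as over blood. Between the tumors 10 of 36 genes of the interferon gamma list were at least 2-fold higher in the Treg-depleted one and 0 lower, beside 7.35% and 6.27% of all genes. Ciita, the master regulator of MHC class II, stood at 12.6, 9.63 and 11.8 CPM, and the receptor chain Ifngr1 was lowest in the Treg-depleted tumor as given above. Among type I genes Isg15, a ubiquitin-like modifier, was 378, 1402 and 1837 CPM and Rsad2, viperin, 55.5, 243 and 462, both high in the tumors. Ifit3, which binds foreign RNA with its relatives, stood at 165 CPM in blood and 70.9 and 57.03 in the tumors; it shares sequence with Ifit3b, at 45.8, 19.4 and 9.79, so the split of reads between them depends on upstream counting.

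Promoters of 4 of these genes are shown for different reasons: Cxcl2 and Egln3 come from lists of which most measured members were at least 2-fold above blood, Isg15 was itself above blood although its type I list was not, and Ccl8 is shown because the gene was high in the Treg-depleted tumor without any of the motifs searched.
Each is up to 250 bases before the RefSeq start on GRCm38.p6, ended earlier where the GENCODE gene begins, in lower case with the motif in capitals.
The motifs were GGGANTTTC for NF-kB, GAAANNGAA for the core of the interferon-stimulated response element, TTCNNNGAA for the gamma-activated site and ACGTG for the hypoxia response element, where N is any base, searched on both strands; matches of the interferon-stimulated and gamma-activated motifs can overlap.

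Cxcl2, NF-kB, chr5:90903649-90903870 (+ strand): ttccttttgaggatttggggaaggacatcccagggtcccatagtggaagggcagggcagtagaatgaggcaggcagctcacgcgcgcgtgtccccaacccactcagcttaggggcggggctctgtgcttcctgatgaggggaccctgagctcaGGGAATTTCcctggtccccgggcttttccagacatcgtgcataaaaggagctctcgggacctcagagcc
Isg15, interferon-stimulated response element, chr4:156200819-156201068 (- strand): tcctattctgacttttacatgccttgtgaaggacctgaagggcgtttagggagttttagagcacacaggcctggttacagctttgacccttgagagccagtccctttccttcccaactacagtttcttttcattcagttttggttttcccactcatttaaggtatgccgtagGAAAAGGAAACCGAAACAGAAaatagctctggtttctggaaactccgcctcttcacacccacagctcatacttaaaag
Egln3, hypoxia response element, chr12:54203875-54204124 (- strand): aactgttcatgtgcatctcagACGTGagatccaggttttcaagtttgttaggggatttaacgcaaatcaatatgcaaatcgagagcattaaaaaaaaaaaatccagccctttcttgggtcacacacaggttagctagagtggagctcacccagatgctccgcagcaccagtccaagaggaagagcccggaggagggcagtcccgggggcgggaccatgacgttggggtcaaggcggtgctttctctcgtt
Ccl8, no match, chr11:82114935-82115184 (+ strand): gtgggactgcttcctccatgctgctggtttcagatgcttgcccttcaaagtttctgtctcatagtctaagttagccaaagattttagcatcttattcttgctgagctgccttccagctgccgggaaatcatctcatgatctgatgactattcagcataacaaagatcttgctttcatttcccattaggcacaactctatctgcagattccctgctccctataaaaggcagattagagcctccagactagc

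The capitals in Cxcl2 begin 97 bases before its RefSeq start, which lies beyond the end of the printed stretch, cut at the GENCODE start. Those of Isg15, 3 overlapping matches, begin 78 before the RefSeq start, and those of Egln3 229 before. The NF-kB motif was in 261 of 27025 RefSeq promoter windows (0.966%), in 3 of 24 windows found for the inflammatory list and 4 of 14 for chemokine ligands. The interferon-stimulated motif was in 7.15% of all windows, in 14 of 24 of the interferon gamma list and 16 of 33 of the type I list, although only the first of those lists stood mostly above blood. The gamma-activated site was in 7.05% of all windows and 10 of 24 of the interferon gamma list, and the hypoxia motif in 16.5% of all and 12 of 28 of the hypoxia list. Alternative activation genes had 0, 3, 3 and 1 of 17 windows with the NF-kB, interferon-stimulated, gamma-activated and hypoxia motifs. A match is a run of letters and not evidence of binding.

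Genes of antigen presentation included several above blood, and the order of the 2 tumors differed between the classes. Of 18 class I and peptide loading genes, 6 were at least 2-fold higher than blood in the Treg-depleted tumor and 0 lower, beside 14.2% and 29.4% of all genes (median 0.83). H2-K1, a classical class I chain, stood at 1000.2, 1576 and 2021 CPM and its light chain B2m at 6203, 8327 and 11183. Of 10 class II genes, 4 were at least 2-fold higher in the Treg-depleted tumor and 8 in the control tumor, beside 14.2% and 12.1% of all genes (medians 0.70 and 2.0). H2-Aa, which presents peptides to CD4 T cells, was 1136 CPM in blood, 6883 in control tumor and 3000.04 after Treg depletion. Its partner H2-Ab1 was 1344, 8535 and 3373 CPM and the invariant chain Cd74 4787, 19745 and 8766, again highest in the control tumor. Between the tumors 0 of 10 class II genes were higher and 7 lower in the Treg-depleted one (median -1.18), beside 7.35% and 6.27% of all genes. Without the cells high in MHC class II the list's median was 0.50 and H2-Aa stood at 0.88. Those cells, 581 of 915 members in control tumor and 645 of 1220 in Treg-depleted tumor, were chosen by H2-Aa, H2-Ab1, H2-Eb1 and Cd74. Their removal caps the same genes, so it cannot show what the order depends on.

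Ligands that restrain or assist T cells were higher in both tumors. Cd274, PD-L1, was 2.44 CPM in blood, 231 in control tumor and 452 in Treg-depleted tumor, a log2 ratio of 7.53 (6.89 to 8.27) over blood and 0.97 over the control tumor. A Cd274 UMI was in 0.209%, 19.3% and 36.1% of thinned members, and in 81.6% of the neutrophils of the Treg-depleted tumor, which can transcribe it too. Pdcd1lg2, PD-L2, the ligand known to respond to interleukin 4, was 0.643, 31.99 and 139 CPM, 2.12 over the control tumor. Cd86 and Cd80, which co-stimulate through CD28, stood at 22.6, 420.5 and 297 and 2.83, 76.02 and 53.9 CPM, both highest in the control tumor. Vsir, the checkpoint protein VISTA, ran against the list at 329, 73.8 and 48.8 CPM, -2.75 over blood, and Cd47, the signal against being eaten, at 664, 564 and 331. In all 11 of 17 measured members were at least 2-fold higher and 4 lower than blood in the Treg-depleted tumor (median 2.08), against 11 and 2 in the control tumor (median 2.07). The shares of all genes were 14.2% and 29.4% in the Treg-depleted tumor and 12.1% and 24.3% in the control tumor. The lower share in the Treg-depleted tumor was thus near that of all genes.

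**Figure D2:**
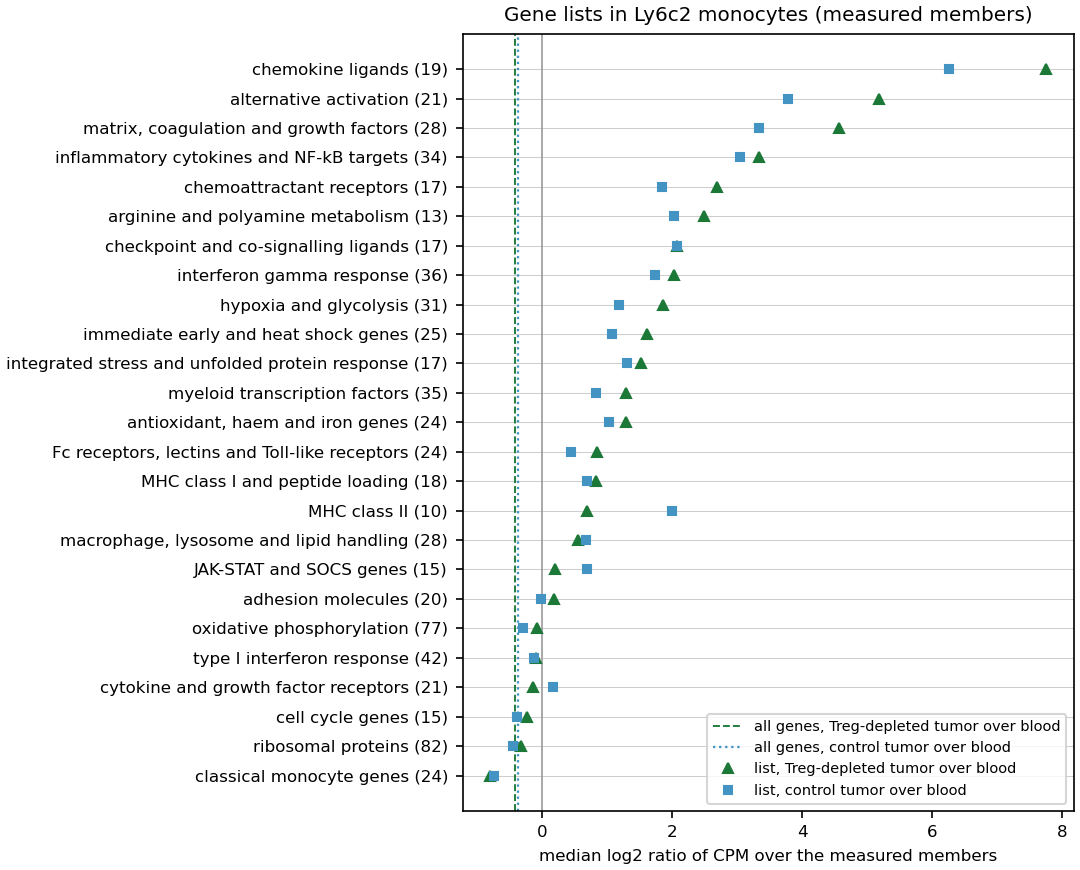
Median log2 ratio of CPM over the measured members of 25 gene lists, Treg-depleted tumor over blood (triangles) and control tumor over blood (squares), with the number of members measured in brackets and the medians of all genes as vertical lines at -0.41 and -0.38. Chemokine ligands lie farthest right in both tumors and classical monocyte genes farthest left; MHC class II is the list where the control tumor lies farthest right of the Treg-depleted one.

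Metabolic genes of low oxygen were higher in the Treg-depleted tumor. Of 31 hypoxia and glycolysis genes, 23 were at least 2-fold higher than blood there and 1 lower (median 1.86), against 17 and 2 in the control tumor (median 1.18), and between the tumors 11 of 30 were higher and 0 lower. The shares of all genes were 14.2% and 29.4%, 12.1% and 24.3%, and 7.35% and 6.27% in the same order. Hilpda, which protects lipid droplets from breakdown, was 7.59 CPM in blood, 396 in the tumor of control mice and 819.9 in that of Treg-depleted mice. Egln3, an oxygen-sensing hydroxylase induced by the factor it controls, was 1.29, 7.05 and 51.7 CPM, 2.87 between the tumors. The oxidase Ero1l stood at 14.4, 84.6 and 276 CPM, the mitophagy gene Bnip3 at 15.9, 68.97 and 189 and the glucose transporter Slc2a1 at 11.96, 89.4 and 145, each highest in the Treg-depleted tumor. Hif1a, the oxygen-regulated factor itself, was 42.3, 211 and 365 CPM. Genes of oxidative phosphorylation and of the ribosome stood near blood: 2 of 77 were at least 2-fold higher and 6 lower than blood in the first (median -0.08) and 0 and 4 of 82 in the second (median -0.33). Cell cycle genes were low everywhere, with Mki67, the proliferation marker, at 5.91, 5.503 and 5.06 CPM, and 1 of 15 measured genes higher and 5 lower than blood, the latter near the 29.4% of all genes.

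Iron, haem and oxidant genes were also high in both tumors. Hmox1, which breaks down haem, stood at 88.1, 672 and 1267 CPM, the cystine importer Slc7a11 at 2.83, 413 and 439 and metallothionein Mt1 at 13.9, 481 and 835. Fth1, the ferritin heavy chain, stood at 2842, 18231 and 19370.5 CPM. Gpx1, glutathione peroxidase, and Gsr, glutathione reductase, were lower, at 1931, 650.1 and 628 and 723, 258 and 154 CPM. The 24 measured genes had 13 higher and 5 lower than blood in the Treg-depleted tumor. Of all genes 14.2% were higher and 29.4% lower there, against 12.1% and 24.3% in the control tumor. Of 17 integrated stress and unfolded protein genes 12 were higher and 0 lower than blood in the Treg-depleted tumor, with the chaperone Hspa5 at 369, 2003 and 1105 CPM. Of 25 immediate early and heat shock genes, which tissue digestion is known to induce, 15 were higher and 0 lower than blood in the Treg-depleted tumor (median 1.62), and 14 higher in the control tumor (median 1.08). Hspa1a stood at 9.26, 199 and 322 CPM and Dusp1 at 50.8, 522 and 307, while Fos was 169, 419 and 149, not above blood in the Treg-depleted tumor. Since blood was not digested, the part of these genes in any difference from blood was not tested.

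Most receptors for attractants were above blood, and a few were below it. Besides Ccr2 and Cx3cr1, S1pr4, a receptor for a blood lipid, was lower in the tumors, at 14.1, 5.85 and 1.26 CPM. Ccr1, a receptor for inflammatory chemokines, stood at 29.7, 534 and 682 CPM, high in both tumors. The complement receptors C3ar1 and C5ar1 stood at 3.99, 175 and 269.8 and 18.5, 441 and 220.2 CPM, with the first highest in the Treg-depleted tumor and the second in the control tumor. Ccr7, which takes mature dendritic cells to lymph nodes, was 0.386, 108 and 25.9 CPM, highest in the control tumor, where summed genes of mature dendritic cells were 155 CPM against 1.67 in blood and 81.99 in the Treg-depleted tumor. In all 11 of 17 measured receptors were at least 2-fold higher and 4 lower in the Treg-depleted tumor than in blood, beside 14.2% and 29.4% of all genes, so the lower share was near the background. Of 20 adhesion molecules 5 were higher and 5 lower by that factor, the lower share near that of all genes. Itga4, the integrin chain that binds vessel walls, was 273, 94.1 and 45.8 CPM, and the tetraspanin Cd9 was 27.9, 249.7 and 519.

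Of 21 cytokine and growth factor receptors 6 were at least 2-fold higher and 5 lower than blood in the Treg-depleted tumor, beside 14.2% and 29.4% of all genes, the lower share again near the background. Il1r2, the decoy receptor of interleukin 1, was 3.34, 297 and 109 CPM, Il4ra, the receptor chain for interleukins 4 and 13, 22.9, 84.3 and 91.2, and Il17ra, the interleukin 17 receptor, 223, 34.6 and 36.7. The interleukin 4 receptor chain was thus higher in both tumors, 0.11 apart on the log2 scale (-0.06 to 0.29). Cish, Socs1 and Socs3, feedback inhibitors that STAT factors induce, stood at 0.386, 56.1 and 93.1, 8.49, 57.4 and 139.8 and 28.9, 382 and 242 CPM, the first 2 highest in the Treg-depleted tumor. Stat6, the factor interleukin 4 uses, was 58.2, 35.8 and 28.8 CPM, lower in both tumors than in blood. Among transcription factors 18 of 35 were higher and 6 lower than blood, against 14.2% and 29.4% of all genes. Maf and Tfec, of macrophage and osteoclast-lineage programs, stood at 27.9, 30.4 and 174 and 9.001, 12.4 and 67.8 CPM, close to blood in the control tumor and over 2-fold higher in the Treg-depleted one. Bhlhe40, a repressor active in inflammatory macrophages, was 8.74, 161 and 243 CPM and Spi1, the myeloid factor PU.1, 707, 563 and 340.1.

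Genes that act on matrix, clotting and growth were high in both tumors, several of them most in the Treg-depleted one. Of 28 measured, 18 were at least 2-fold higher and 5 lower than blood in the Treg-depleted tumor (median 4.57), and between the tumors 10 of 26 were higher and 2 lower. The shares of all genes were 14.2% and 29.4% over blood and 7.35% and 6.27% between the tumors. The lower share between the tumors was thus near that of all genes. Thbs1, thrombospondin, and Spp1, osteopontin, were alike in both tumors, at 4.11, 1577 and 1433 and 2.31, 966 and 1029.9 CPM. Mmp12, the macrophage elastase, was 0.643, 51.4 and 572 CPM, and Mmp13, a collagenase, had no UMI in blood and 13.2 and 276 CPM in the tumors, at least 716-fold higher than blood in the Treg-depleted tumor. The growth factors Vegfa and Hbegf had no UMI in blood and stood at 56.8 and 88.3 CPM and at 22.01 and 106 CPM in the tumors. Areg, amphiregulin, was highest in the control tumor, at 51.3 against 23.2 CPM, with no UMI in blood. The clotting factors F7 and F10 stood at 1.29, 12.4 and 52.3 and 107, 285 and 591 CPM, and Timp1, an inhibitor of matrix proteases, at 0.129, 38.2 and 125. Fn1 and F13a1, matrix and clotting genes of blood monocytes, ran the other way at 627, 162 and 303 and 541, 144 and 119 CPM. Platelet genes summed to 0.386, 98.03 and 183 CPM, nearly all from Pf4 (0.129, 97.7 and 178), a chemokine that macrophages also transcribe, with free RNA at 544 and 738 CPM in the tumors.

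Of 28 measured genes of macrophages and lipid handling, 11 were higher and 3 lower than blood in the Treg-depleted tumor, where 14.2% and 29.4% of all genes were (median 0.55). Plin2, the coat of lipid droplets, stood at 167, 1022 and 1417 CPM, the fatty acid binder Fabp5 at 60.05, 518 and 774 and the protease Ctsl at 57.5, 420.3 and 703. The glycoprotein Gpnmb stood at 0.386, 47.3 and 50.2 CPM. Trem2, a lipid receptor, was lower at 75.9, 52.5 and 43.4, as was Adgre1, the antigen F4/80, at 116, 115 and 64.8. Summed markers of macrophages, C1q included, were 3289, 2609.7 and 1018 CPM, of which Apoe made up 2999, 1890.3 and 195.

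Of 24 Fc receptors, lectins and Toll-like receptors, 12 were higher and 5 lower than blood in the Treg-depleted tumor, against 14.2% and 29.4% of all genes. Clec4e, Clec4d and Clec4n, lectins for microbial glycolipids and mannans, were 34.5, 1112 and 592, 17.7, 398 and 384 and 20.8, 868 and 493 CPM, while their neighbors Clec4a1 and Clec4a3 were 359.9, 179 and 108 and 698, 245 and 124. Fcgr4, an activating antibody receptor that nonclassical monocytes and macrophages carry, was 37.8, 254 and 232 CPM.

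Members of the Treg-depleted tumor differed widely among themselves. They were put in 3 equal groups by the share of their UMIs from Ly6c2, a gate gene, so the order is a description. From the lowest to the highest group, Lyz2 stood at 2496, 6227 and 12432 CPM and Plac8, a monocyte gene, at 2041, 4438 and 6470.3. Both were highest in the group with the most Ly6c2. Arg1 ran the other way at 4607, 3488 and 1745 CPM, as did Ccl17 at 957, 322 and 22.02, Retnla at 634, 213 and 54.04, and Mmp12 at 1032, 463 and 127. Ccl24 did not order so simply, at 4587, 4929 and 2341 CPM. Even the highest Ly6c2 group held more Arg1 than any group of the control tumor, which stood at 119, 71.3 and 60.5. Some interferon-induced genes were also highest there: Iigp1 was at 167, 285 and 504 CPM, Cxcl10 at 332, 491 and 899.7 and Gbp2 at 689.9, 922 and 1509. Cxcl9 at 164, 230.1 and 263 CPM and Isg15 at 1408, 1868 and 2320.2 had the same order, while Ifit3 at 51.8, 41.3 and 78.6 was lowest in the middle group and Rsad2 at 424, 488 and 484 was nearly level. The control tumor did not show this order for Iigp1, at 114, 69.6 and 96.6 CPM, for Cxcl10, at 1031, 1020.2 and 905, or for Gbp2, at 727, 818 and 724. In the control tumor Lyz2 was flatter, at 16783, 21346 and 21637 CPM, and H2-Aa stood at 7836, 6348 and 6096 against 4136, 2804 and 1829.8 in the Treg-depleted tumor.

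**Figure D3:**
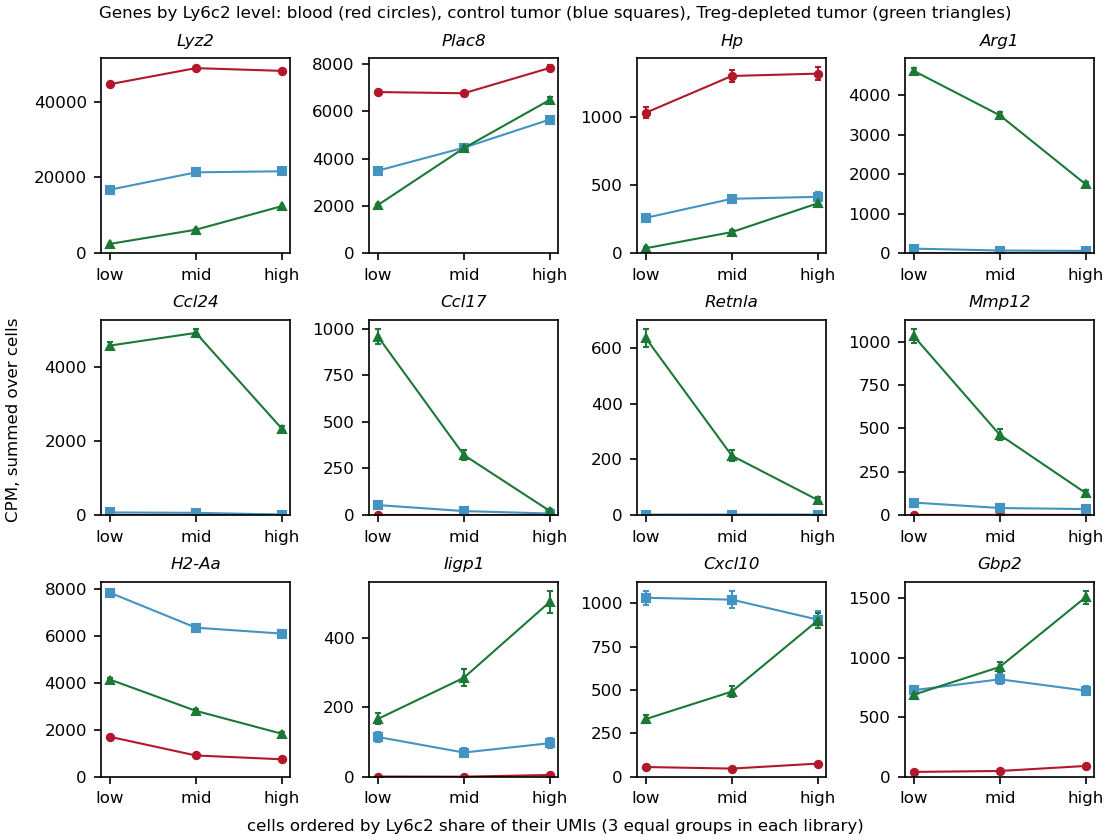
CPM of 12 genes in members put in 3 equal groups by the Ly6c2 share of their UMIs, from low to high, with 95% Poisson intervals, in blood (red circles), control tumor (blue squares) and Treg-depleted tumor (green triangles). In the Treg-depleted tumor Lyz2, Plac8 and Hp climb with Ly6c2 while Arg1, Ccl17, Retnla and Mmp12 decline, and Iigp1, Cxcl10 and Gbp2 climb.

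Cells with and without Arg1 also differed in other genes. Among thinned members of the Treg-depleted tumor, 717 had an Arg1 UMI and 503 did not. Ccl24 was in 65.6% of the first and 39.2% of the second, Mrc1 in 20.1% and 5.96%, and H2-Aa in 74.8% and 50.3%. Cxcl2 was in 65.8% and 48.9% and Retnla in 9.76% and 4.37%. Cxcl9 was in 7.67% and 20.1% and Iigp1 in 13.4% and 25.05%, lower beside Arg1 for these 2 genes, whose difference was not tested. Chil3, which type 2 cytokines also induce, was in 55.1% and 64.2% and Ccr2 in 13.4% and 17.7%, likewise lower beside Arg1. Il1b was found about equally, in 49.2% and 51.7%. These are cells of 1 library, and no test was made.

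**Figure D4:**
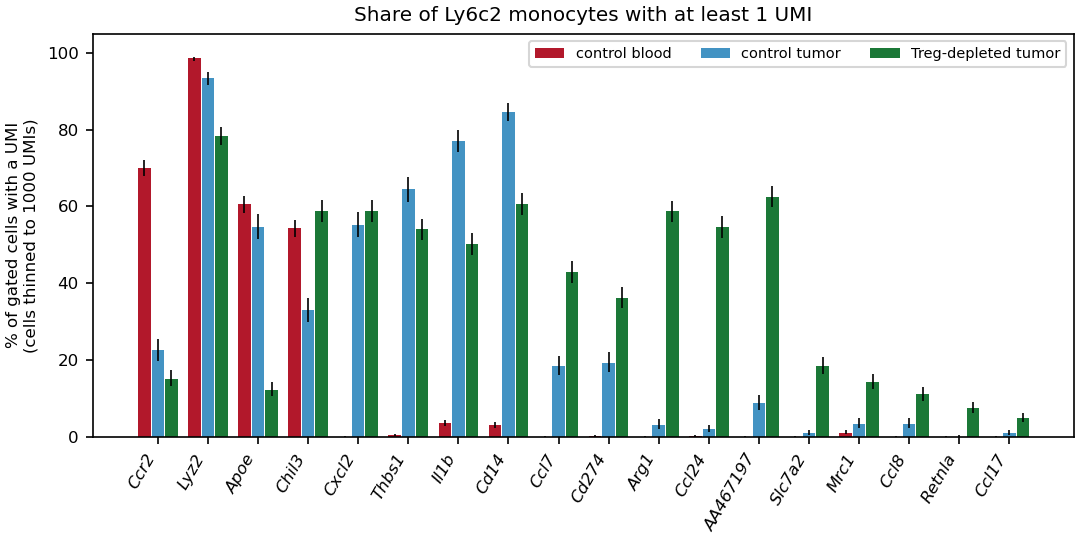
Percent of members with at least 1 UMI of a gene after each cell was thinned to 1000 UMIs, with 95% Clopper-Pearson intervals, in 3 libraries. Ccr2, Lyz2 and Apoe are highest in blood, Il1b and Cd14 in the control tumor, and Arg1, Ccl24 and AA467197 exceed 50% of members in the Treg-depleted tumor alone.

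How evenly a gene was shared among members also differed. For each gene, members were ranked by the share of their UMIs from it. In the Treg-depleted tumor the top 10% held 24.3% of Ly6c2, 27.03% of Cd274, 37.7% of Arg1 and 54.2% of Ccl24 UMIs. The top 10% held 94.1% of Ccl8, 92.7% of Retnla and 83.9% of Mmp12 UMIs, so these genes came from few cells. The median member gave 8.03% of its UMIs to classical monocyte genes in blood, 4.46% in control tumor and 2.55% after Treg depletion. For alternative activation genes the medians were 0.178%, 0.186% and 1.03%, and the middle 80% of cells in the Treg-depleted tumor ran from 0.274 to 2.85%. For MHC class II the middle 80% lay between 0.147 and 8.27% (control tumor) and between 0.1197 and 3.69% (Treg-depleted tumor). Interferon gamma genes took 0.339%, 0.791% and 0.855% of the median member's UMIs.

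**Figure D5:**
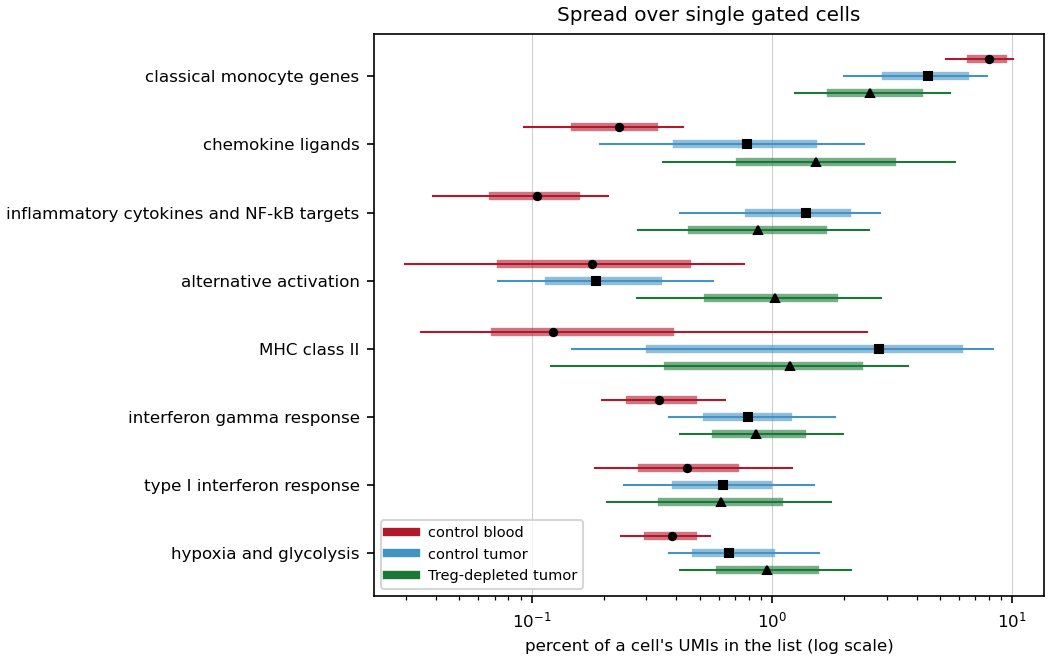
Percent of each member's UMIs in 8 gene lists, on a log axis, with the median (marker), the middle 50% (thick line) and the middle 80% (thin line) of cells in each library. Alternative activation genes lie higher in the Treg-depleted tumor, and MHC class II has the widest spread in each tumor.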

How the data were processed

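Sorted myeloid cells of mice gave 3 libraries, 1 a group, made with a 10x 3' single-cell kit. The deposited tables list a UMI count, always whole, for each of 27998 genes in 737280 barcodes; per the submitters' processing notes they were made with Cell Ranger 1.2 on mm10. Cells were called anew with the conditions given above, UMIs were summed over the members of a library and scaled to CPM. Library totals were 22944387 (blood), 42493416 (control tumor) and 23291061 UMIs (Treg-depleted tumor). A gene was measured with at least 20 UMIs in either sum; fewer than 3 UMIs were set to 3 for counts past 2-fold, list medians and "at least" folds, a floor of 0.386, 0.516 and 0.474 CPM. Intervals are exact Poisson or conditional Clopper-Pearson ones at 95% and cover counting error only. No doublets were removed, except in an alternative whose caller marked 4.43%, 3.56% and 3.54% of cells. Of identifiers sharing a symbol, that with most UMIs was kept; 819 of 826 list genes were found, all but Cxcl11, Cebpd, Mx2, Clec7a, Ighm, Trac and Trbc2, in 25 program and 17 other-cell lists. Genes of GENCODE M21 matched 27722 of the identifiers. Values of some single list genes are not reported here. The members and lists were chosen with earlier results of these data known. Named genes had 50 CPM and 100 UMIs or more in their higher library and were the 12 highest and 12 lowest ratios of Treg-depleted tumor over blood, the 10 highest and 10 lowest both over blood and over the control tumor, and the 10 highest and 10 lowest of both tumors over blood, besides list members and gate genes. Neutrophils used for free RNA (at least 20 UMIs of 5 marker genes and no Ly6c2) and 2 alternatives, another C1q threshold and the removal of other cell types, were chosen after seeing the data. The ambient alternative subtracted the profile of barcodes with 10 to 100 UMIs at 40.8%, 21.5% and 16.9% of members' UMIs. These shares were set by genes of B, NK, T, melanoma, erythroid and platelet cells, at 305, 144 and 209 CPM in members. NK-cell genes made up 229 CPM of this in blood, and platelet genes 98.03 and 183 in the control and Treg-depleted tumors. RNA that members made themselves counts as free here, so the shares can be too high. Steps were tested on simulated data and run in Python 3.11.15 with numpy 2.4.6, pandas 2.3.3, scipy 1.17.1, scikit-learn 1.9.0 and matplotlib 3.10.9.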

Additional observations from a re-analysis of the deposited data

Results flagged for a closer look

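Cox6a2, a respiratory chain subunit also used as a marker of plasmacytoid dendritic cells, lay on opposite sides of blood in the 2 tumors. It stood at 6.04 CPM in blood (47 UMIs), 34.2 in the control tumor (199 UMIs) and 1.42 in the Treg-depleted tumor (9 UMIs), log2 ratios over blood of -2.09 in the Treg-depleted tumor and 2.50 in the control tumor. The difference rests on 1 library a group and was not tested. Siglech, another plasmacytoid marker, stood at 11.2, 34.1 and 4.11 CPM, and members with plasmacytoid markers numbered 25, 35 and 4. Cox6a2 and Siglech are among the markers that define those members, so these numbers are no separate check. The part of those members in the result was not tested.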

How the results depend on the processing

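The alternatives were run for the genes named by their ratios and for some other genes, not for every gene given above. Of 234 ratios of these genes past 2-fold, 224 kept their sign and 189 stayed past 2-fold under every alternative tried. So did 27 and 21 of 28 list medians. Counts below 3 UMIs were set to 3 here. Over all these genes, comparisons and alternatives, 5045 values stayed within the main counting interval and 1561 moved outside it. Another 9 turned sign from a main ratio past 2-fold with an interval clear of 0. Across alternatives the median over blood in the Treg-depleted tumor ran from 7.07 to 8.50 for chemokine ligands, 4.26 to 5.78 for alternative activation, 2.77 to 4.35 for inflammatory genes, 1.99 to 2.56 for interferon gamma genes and -0.94 to -0.39 for classical monocyte genes. With at least 100 UMIs required, 1697 genes were lower than blood in the Treg-depleted tumor and 1258 in the control tumor, and 310 were higher and 234 lower between the tumors; with no count filter 938 were lower between them. Median scaling gave 1847 and 1471 genes lower than blood in the 2 tumors and set the median of all genes from -0.41 and -0.38 to 0. Thinning to 1000 UMIs gave 769 genes higher in the control tumor than in blood and 348 lower between the tumors, and turned Nfe2 between the tumors to -0.42. Subtracting free RNA turned Cd209a to 5.28 and S100a8 to 7.23 over blood in the Treg-depleted tumor, and Retnlg, S100a8 and S100a9 to 0.033 in the control tumor. A count that subtraction took below 3 UMIs stood at that floor, as Cd209a in blood did, so its ratio gives no direction. Without the cells high in MHC class II, that list's median between the tumors turned to 0.50, with H2-Aa at 0.88, H2-Ab1 at 0.28 and Cd74 at 0.50. Those cells were chosen by these same genes and H2-Eb1, so this alternative is no separate check of the order. Without the C1q condition Apoe in the control tumor stood at 0.10 over blood, against -0.67. The causes of these shifts were not tested beyond what each alternative removes. No paired analysis was possible because each group has 1 library, and for the same reason no library could be left out. Medians of 3932.5 to 5365 UMIs per member mean that most members show no UMI of genes at a few CPM, which limits every share of cells given.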
